A study of Mus musculus with 8 samples.

Results

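OySyNyK D5 and D3 are the last pair of time points of a mouse reprogramming series, and the comparison asks which 5-hydroxymethylcytosine (5hmC) peaks of D3 were found again at D5, which were lost and which were new. The members were all peaks of these 2 lists, 70592 at D5 and 93694 at D3, or 164286 of the 684512 peaks in the 8 lists of the series. A D5 peak was called new when no D3 peak shared at least 1 bp with it, a D3 peak was called lost when no D5 peak did, and all other peaks were called kept. Both lists were also set against the list of the iPSC end state and that of the fibroblast starting cells.

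5hmC is made from 5-methylcytosine by the TET enzymes and is both a step on the way to demethylated cytosine and a mark found in gene bodies and at enhancers. When fibroblasts are turned into pluripotent cells, 5hmC is known to be lost from some fibroblast loci and laid down at loci of the pluripotent state, and TET1 and TET2 take part in this. OSNK stands for Oct4, Sox2, Nanog and Klf4, transcription factors that drive reprogramming when supplied together. In OySyNyK, Oct4, Sox2 and Nanog carry a transactivation domain of the coactivator YAP. Both readings of the factor names are background and not from the labels.

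The OySyNyK D5 and D3 samples are labelled as reprogramming intermediates of that method, and D is read as day. Of the other libraries used, OySyNyK D1 is an earlier intermediate of the same method, OSNK D5, D3 and D1 are intermediates made with OSNK, iPSC is an induced pluripotent line whose title names the OySyNyK factors, and MEF is mouse embryonic fibroblasts. The culture notes name OG2-MEFs and, for reprogramming, vitamin C and LIF, which all the intermediates then share. The iPSCs were kept on mitomycin C-treated MEF feeder cells, and the part of feeder DNA in the iPSC list was not tested. Every group had 1 library of genomic DNA from a bulk culture, so no difference between days has a replicate check and no p-value is given. Fewer cells carrying 5hmC at a site and less 5hmC per cell cannot be told apart in such samples. The lists carry no gene-level values, so the labelled cell types could not be checked against marker genes.

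The D5 list was shorter, and it covered 57.6 Mb, against 74.3 Mb at D3. Its median peak score was 75.8, against 84.2 at D3, and its median width was 703 bp, against 680 bp at D3. The score is the authors' value for each peak, in MACS -10 times the log10 of the p-value, and the lowest score in both lists was 50. Read depth was unknown. List length and score depend on depth as well as on 5hmC, and their part in the shorter D5 list was not tested.

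At D5, 20977 peaks were new, which is 29.7% of the list (exact 95% interval 29.4 to 30.1). Of the D3 peaks, 44015 were lost, which is 47.0% (46.7 to 47.3). These 2 shares are the background for shares below that are taken over the whole lists. They are not the background within score quintiles, with equal numbers of peaks or for regions. The shorter list was almost wholly a matter of lost and new peaks and not of peaks that fused. New peaks minus lost peaks came to -23038, and the difference in list length was -23102. Of the kept D5 peaks, 47763 lay on a single D3 peak and 1852 on 2 or more. Of the kept D3 peaks, 47909 lay on a single D5 peak and 1770 on 2 or more.

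Bases covered on 1 day only came mostly from these same peaks. D5 alone covered 20.0 Mb and D3 alone 36.7 Mb, while 37.6 Mb were covered on both days. New peaks made up 69.5% of the D5-only bases and lost peaks 78.7% of the D3-only bases. The rest lay in kept peaks, at bases that no peak of the other day covered.

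Few peaks sat near the 1-bp line. Among D5 peaks, 161 were kept by 50 bp or less and 283 were new with a D3 peak within 50 bp. Among D3 peaks, 267 were kept by 50 bp or less and 447 were lost with a D5 peak within 50 bp. New peaks lay a median of 3128 bp from the nearest D3 peak, and 24.3% of them had one within 1 kb. Lost peaks lay a median of 4304 bp from the nearest D5 peak, and 20.6% of them had one within 1 kb. Most unmatched peaks thus had no peak of the other day within 1 kb.

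Lost and new peaks were the weak and narrow peaks of their lists. New peaks had a median score of 62.3 (quartiles 55.1 and 74.8), against 87.2 (64.9 and 129) for the kept peaks of D5. Lost peaks had a median score of 68.5 (57.6 and 88.9), against 113 (76.1 and 177) for the kept peaks of D3. A score of at least 100 was reached by 7.59% of new and 40.4% of kept D5 peaks, and by 17.2% of lost and 57.5% of kept D3 peaks. In numbers, 1593 new and 7584 lost peaks reached it.

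The unmatched share went down with score without a break in both lists. The new share of D5 was 54.3% in its lowest score decile and 1.43% in its highest, which held 101 new peaks. In the lowest decile of D3, with scores from 50 to 54.4, 73.9% were lost, and in the highest decile, with scores from 208, 3.78% were lost (354 peaks). The lower-scoring 5 deciles held 76.4% of all new peaks and 70.9% of all lost peaks. The remaining 12811 lost peaks came from the better-scoring 5 deciles of D3, whose scores began at 84.2.

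**Figure D1:**
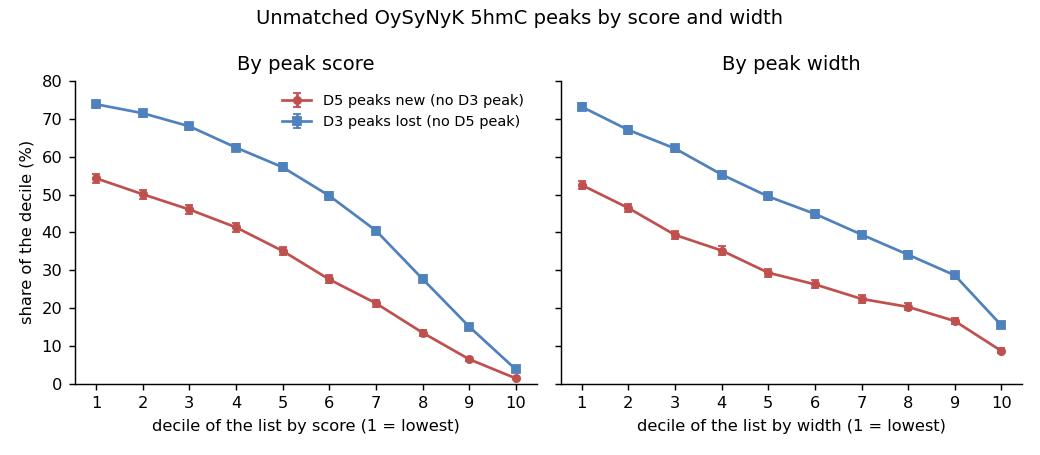
Share of each decile of the OySyNyK D5 list that was new (circles) and of each decile of the D3 list that was lost (squares), in percent, with peaks ordered by score (left) or width (right); bars are exact 95% intervals. Both shares decline over all deciles, the lost share from 73.9% to 3.78% by score, and D3 lies above D5 in every decile.

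Width followed the same course and added to score. In the narrowest decile 52.5% of D5 peaks were new and 73.2% of D3 peaks were lost, and in the widest decile 8.66% were new and 15.4% were lost. Within the middle quintile of scores, 28.1% of the wider D5 peaks were new and 34.5% of the narrower ones. In the same quintile of D3, 48.6% of the wider peaks were lost and 58.2% of the narrower ones. A wider peak has more bases that can meet a peak of the other list, and the part of this in the values by width was not tested. No new peak and no lost peak was as wide as 4 kb, while 56 kept D5 peaks and 76 kept D3 peaks were. The widest new peak had 3493 bp and the widest lost peak 3860 bp.

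Peaks were then placed by the end-state lists. A peak that overlapped iPSC and not MEF is called iPSC-side, one that overlapped MEF and not iPSC MEF-side, one that overlapped both shared, and one that overlapped neither intermediate-only. Of the 12644 iPSC-side peaks of D5, 37.1% were new (36.3 to 38.0), and of the 32879 intermediate-only peaks 39.3% (38.8 to 39.8). Of the 16615 MEF-side peaks 14.5% were new (14.0 to 15.0), and of the 8454 shared peaks 11.3% (10.7 to 12.04). The first pair lay above the 29.7% of all D5 peaks and the second pair below it.

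The classes of D3 peaks stood in another order. Of the 10629 iPSC-side peaks of D3, 25.0% were lost (24.2 to 25.9), and of the 8804 shared peaks 13.9% (13.2 to 14.7). Of the 25763 MEF-side peaks 44.9% were lost (44.2 to 45.5), and of the 48498 intermediate-only peaks 58.9% (58.5 to 59.4). Shared and iPSC-side peaks lay far below the 47.0% of all D3 peaks, MEF-side peaks slightly below and intermediate-only peaks above. Set against these shares of all peaks, the MEF-side class was low in new peaks and near the background in lost ones, and the iPSC-side class was high in new and low in lost peaks. The shared class was low in both and the intermediate-only class high in both.

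Intermediate-only and MEF-side peaks accounted for the shorter D5 list. Intermediate-only peaks, D5 minus D3, differed by -15619, which is 67.6% of the whole. MEF-side peaks differed by -9148, which is 39.6%. Shared peaks differed by -350. The iPSC-side class was the one class with more peaks at D5, by 2015. That excess was 654 with a peak within 1 kb counted as overlap and 292 among peaks scoring 100 or more, and the shared class turned to an excess of 157 with 50% of the peak covered. For 1 new MEF-side peak 4.80 were lost, for 1 new intermediate-only peak 2.21, for 1 new shared peak 1.28 and for 1 new iPSC-side peak 0.566.

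**Figure D2:**
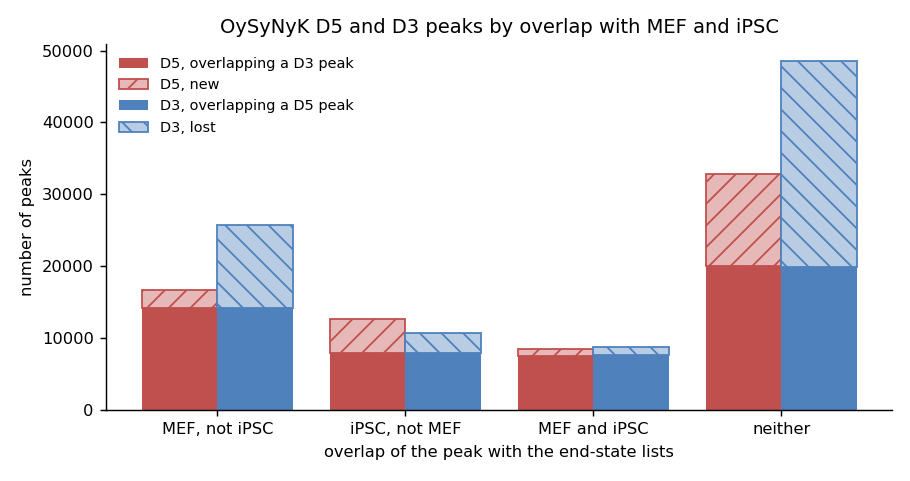
Number of peaks in the OySyNyK D5 (left bars) and D3 (right bars) lists by overlap with the MEF and iPSC lists; solid parts overlap a peak of the other day and hatched parts are new at D5 or lost after D3. Kept parts are close in height within each class, and the lost part exceeds the new part except for iPSC-side peaks, with 4694 new and 2659 lost.

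Seen from the unmatched peaks, iPSC and MEF overlap differed in opposite directions. An iPSC peak was overlapped by 26.9% of new peaks (26.3 to 27.6) and by 8.83% of lost peaks (8.56 to 9.10). A MEF peak was overlapped by 16.0% of new peaks (15.6 to 16.5) and by 29.0% of lost peaks (28.6 to 29.5). Kept peaks of D5 overlapped iPSC at 31.1% and MEF at 43.7%, and kept peaks of D3 overlapped iPSC at 31.3% and MEF at 43.9%. New and lost peaks thus each overlapped MEF, and also iPSC, less often than the kept peaks of their own day. New peaks therefore came near the kept peaks in their iPSC overlap despite their low scores, while lost peaks did not.

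The classes also differed in score, and were therefore compared at like score, within quintiles of each list. At D5 the order for new peaks was iPSC-side, intermediate-only, shared and MEF-side in each quintile. In the middle quintile, with scores from 68.3 to 86.4, 43.7% of iPSC-side peaks were new (41.8 to 45.6), 36.04% of intermediate-only, 20.2% of shared and 15.0% of MEF-side peaks (13.7 to 16.2). Of all D5 peaks, 35.1% were new in the lower decile of that quintile and 27.6% in the upper one. In the highest quintile the shares were 7.93% of iPSC-side, 6.43% of intermediate-only, 1.76% of shared and 1.35% of MEF-side peaks, with overlapping intervals within the first pair and within the last. Of all D5 peaks, 6.49% were new in the lower decile of the highest quintile and 1.43% in the upper one.

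Median D3 scores were 92.0 for iPSC-side, 96.2 for MEF-side, 156 for shared and 73.9 for intermediate-only peaks. In the middle quintile of D3, with scores from 74.0 to 97.8, 28.7% of iPSC-side peaks were lost (26.8 to 30.7) and 27.9% of shared peaks (25.3 to 30.7). In the same quintile 56.6% of MEF-side peaks were lost (55.2 to 57.9) and 59.4% of intermediate-only peaks (58.5 to 60.3). Of all D3 peaks, 57.2% were lost in the lower decile of that quintile and 49.7% in the upper one. The classes thus divided mostly into peaks with and without an iPSC peak. In this quintile MEF-side peaks were lost nearly as often as intermediate-only ones, although their shares over all scores were 44.9% and 58.9%.

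That split was found in every quintile. MEF-side exceeded iPSC-side peaks in the lost share by 7.57 percentage points at least and by 29.0 at most. In the highest quintile, with scores from 148, 11.4% of MEF-side and 16.0% of intermediate-only peaks were lost, against 3.87% of iPSC-side and 2.64% of shared ones. Of all D3 peaks, 15.1% were lost in the lower decile of that quintile. Among the strongest decile of D3, 3.78% of all peaks were lost. By class these were 164 of 3347 MEF-side (4.90%), 145 of 1687 intermediate-only (8.60%), 21 of 1288 iPSC-side (1.63%) and 24 of 3047 shared peaks (0.79%).

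**Figure D3:**
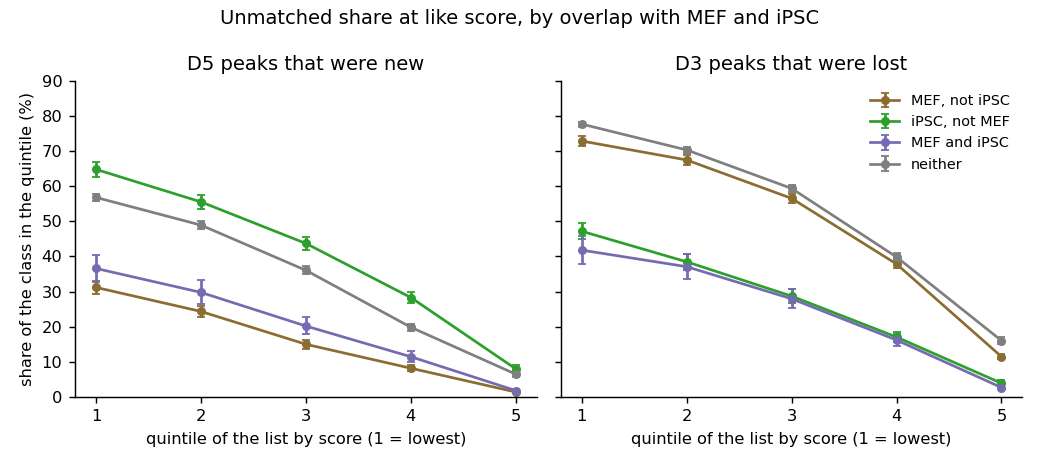
Share of peaks that were new at D5 (left) and lost after D3 (right), in percent, within quintiles of each list by score, for peaks grouped by overlap with MEF and iPSC; bars are exact 95% intervals. On the right, peaks with an iPSC peak lie below those without one in each quintile; on the left, iPSC-side peaks lie highest and MEF-side peaks lowest.

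Equal numbers of peaks changed the account of the shorter list. The 70592 best-scoring D3 peaks reached down to a score of 62.5. Of the 23102 D3 peaks left out, 66.5% were intermediate-only, 20.8% MEF-side, 9.55% iPSC-side and 3.18% shared, and 72.0% had been lost. With these left out, 38.2% of D5 peaks were new (26944) and 38.8% of D3 peaks were lost (27393). The D3 peaks left out included 6480 kept ones. For that reason 5967 of the 26944 D5 peaks became new by the cut alone. The intermediate-only class, which had made up most of the difference, then differed by -260 peaks between D5 and D3. MEF-side peaks still differed by -4346, iPSC-side peaks by 4222 and shared peaks by 384. With lists of equal length the class differences add up to 0, so a deficit in any class comes with an excess elsewhere. The iPSC-side value was 2015 before the cut, which left out 2207 iPSC-side D3 peaks and no D5 peaks.

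The classes of D3 peaks kept their order with equal numbers. New shares were 46.01% for iPSC-side, 21.5% for MEF-side, 16.0% for shared and 49.3% for intermediate-only peaks, to be read against 38.2% of all. These new shares include the D5 peaks that became new by the cut alone. Lost shares were 19.4%, 38.6%, 11.4% and 50.5% in that order of classes, to be read against 38.8% of all. An iPSC peak was overlapped by 26.6% of new and 9.35% of lost peaks, and a MEF peak by 18.3% of new and 32.9% of lost peaks. New peaks then had a median score of 63.4 and a median width of 606 bp, lost peaks 82.3 and 646 bp.

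Kept peaks carried the same contrast in their scores. In 44707 cases 1 D5 peak and 1 D3 peak overlapped only each other. Their median score was 85.9 at D5 and 111 at D3, and the median ratio of D5 to D3 score was 0.80 (quartiles 0.59 and 1.08). The ratio was above 1 in 30.8% of pairs. Scores of libraries with unknown depth have no common scale, so the ratio is read only between classes of the same pairs. Its median was 0.92 in 7008 iPSC-side pairs, 0.72 in 12384 MEF-side pairs, 0.78 in 6133 shared pairs and 0.83 in 18322 intermediate-only pairs. The D5 score was the higher one in 43.2% of iPSC-side pairs (42.0 to 44.3) and in 23.0% of MEF-side pairs (22.3 to 23.8).

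Width in these pairs went the same way. Median width of iPSC-side pairs was 830 bp at D5 and 788 bp at D3, and of MEF-side pairs 740 bp at D5 and 798 bp at D3. Within the highest quintile of D3 scores the median ratio of D5 to D3 score was 0.66 for iPSC-side and shared pairs. This score ratio was 0.54 and 0.53 for MEF-side and intermediate-only pairs. In the lowest quintile it was 1.39 for iPSC-side, 1.45 for shared, 1.23 for MEF-side and 1.19 for intermediate-only pairs. A low-scoring D3 peak could only be kept if its D5 score was 50 or more, so low ratios could not occur there. Over all pairs the rank correlation of D5 and D3 scores was 0.52 (Spearman's rho), a description across peaks that share their libraries.

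The other 4 intermediates were not used to sort the peaks. New peaks had an overlapping peak in 29.5% of cases in OSNK D5, in 25.6% in OSNK D3, in 22.2% in OSNK D1 and in 21.0% in OySyNyK D1. Kept D5 peaks had one in 74.6%, 72.7%, 66.0% and 74.5% of cases in the same lists. Lost peaks had one in 42.4% of cases in OSNK D5, in 50.3% in OSNK D3, in 53.4% in OSNK D1 and in 54.8% in OySyNyK D1. Over all scores, lost peaks thus had a higher share the earlier the OSNK list, new peaks a higher share the later the OSNK list, and both lay below kept peaks.

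New peaks stood apart from kept ones at like score too. In the middle quintile of D5, 21.2% of new and 69.4% of kept peaks had an OySyNyK D1 peak. For lost peaks this depended on score. In the middle quintile of D3, 61.2% of lost and 63.1% of kept peaks had an OySyNyK D1 peak, a much smaller gap than over all scores (54.8% and 74.4%). In the same quintile 46.7% of lost and 63.5% of kept peaks had an OSNK D5 peak, and 55.5% of lost and 60.04% of kept peaks an OSNK D3 peak. OSNK D1 went the other way, with a peak in 57.8% of lost (56.9 to 58.8) and 53.1% of kept peaks (52.0 to 54.2). Lost peaks lay above kept ones in OSNK D1 in the 4 lower quintiles, by intervals that overlap in the lowest, and in the highest the shares were 86.0% of lost and 86.6% of kept peaks.

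**Figure D4:**
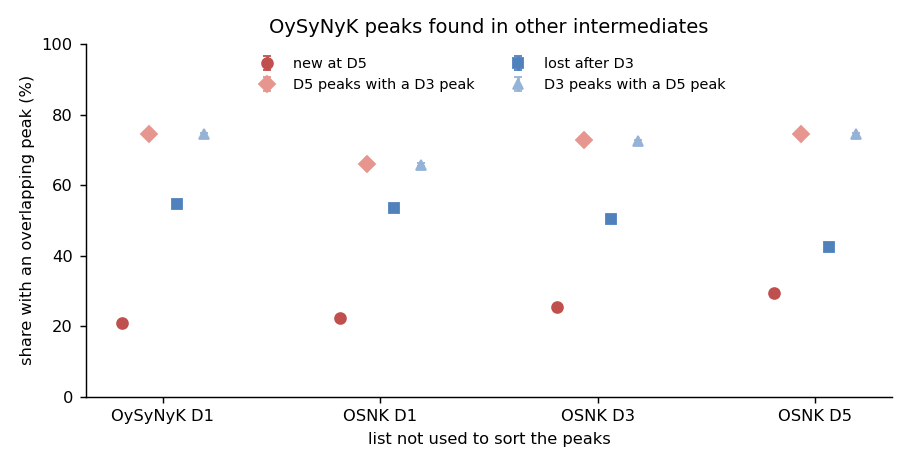
Share of new and kept OySyNyK D5 peaks and of lost and kept D3 peaks, in percent, with an overlapping peak in each of 4 lists that were not used to sort them; bars are exact 95% intervals. Kept peaks lie between 65.7% and 74.6%, lost peaks between 42.4% and 54.8% and new peaks between 21.0% and 29.5%.

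By class, new iPSC-side peaks had an overlapping peak in 23.3% of cases in OSNK D5, in 14.9% in OSNK D3 and in 8.01% in OySyNyK D1. New MEF-side peaks, few in number, were in OySyNyK D1 in 65.8% of cases, so 1585 of 2407 were present at D1, absent from the D3 list and present again at D5. Lost MEF-side peaks were in OySyNyK D1 in 87.6% of cases, in OSNK D3 in 66.9% and in OSNK D5 in 46.1%, while kept MEF-side peaks of D3 were in OSNK D5 in 80.1%. Of lost MEF-side peaks 53.9% had no OSNK D5 peak, which is below the share for lost peaks of all classes, since 42.4% of those had one.

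D3 peaks without an OySyNyK D1 peak were lost more often than D3 peaks with one. The lost share was 61.0% of 32635 peaks without a D1 peak and 39.5% of 61059 peaks with one. The median D3 score was 66.3 without a D1 peak and 103 with one, and at like score the gap was smaller. In the middle quintile of scores the shares were 54.7% (53.6 to 55.9) and 52.7% (51.8 to 53.6), and in the highest quintile 13.8% and 9.20%. Among iPSC-side peaks the lost share was 33.4% without a D1 peak and 16.6% with one, at median D3 scores of 72.4 and 131, and the part of score in this gap was not tested.

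The same counts were made for the 2 most similar pairs of lists, and no test of the differences was possible. OySyNyK D3 against D1 has the OySyNyK D3 library in common with the comparison described here, and all 3 use the same MEF and iPSC lists. For OSNK D5 against D3, 30.2% of peaks were new and 33.7% were lost. Its lost shares were 17.9% for iPSC-side, 32.0% for MEF-side, 11.4% for shared and 40.3% for intermediate-only peaks. For OySyNyK D3 against D1, 34.8% were new and 39.5% were lost, with lost shares of 15.5%, 42.0%, 13.0% and 45.9% in the same order of classes. All 3 pairs had more lost MEF-side than lost iPSC-side peaks as a share of their class. Intermediate-only peaks differed by -15619 for OySyNyK D5 against D3, by 5162 for OSNK D5 against D3 and by 2820 for OySyNyK D3 against D1. With the lists of each pair cut to equal numbers, these differences were -260, 2763 and 7786 peaks, and the shares of all peaks lost were 38.8%, 34.9% and 37.5%.

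Peaks were lost on all chromosomes, and all 20 chromosomes had fewer peaks at D5 than at D3. On autosomes the share new lay between 27.5% and 31.8% and the share lost between 42.9% and 53.5%. On the X chromosome 51.3% of 226 D5 peaks were new and 67.0% of 333 D3 peaks were lost (61.6 to 72.0), the highest lost share. Chromosomes 6 and 8 came next, with 53.5% (51.9 to 55.1) and 52.5% (50.9 to 54.1) lost. The lowest shares were 42.9% on chromosome 15, 43.2% on chromosome 17 and 43.3% on chromosome 11, whose intervals overlap. Median D3 scores were 68.4 on X, 80.7 on chromosome 6 and 81.6 on chromosome 8, and between 86.8 and 87.5 on chromosomes 15, 17 and 11. An iPSC peak was overlapped by 12.7% of D3 peaks on chromosome 6 and by 25.2% on chromosome 15. On chromosomes 13 and 16 it was only 6.45% and 7.49%, with lost shares of 50.3% and 48.3%. In the highest score quintile of D3, 9.52% were lost on X, 12.3% on chromosome 6 and 10.8% on chromosome 8. In that quintile the share was 8.27% on chromosome 15, 7.79% on chromosome 17 and 8.18% on chromosome 11. The part of score and class in these differences was not tested.

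Unmatched peaks lay more often in sparse regions. Of D5 peaks alone in their 100 kb, 43.4% were new, and of those in regions with 20 or more D5 peaks, 19.05%. At D3 68.3% of lone peaks were lost and 34.4% of those in regions with 20 or more. The spread was smaller in the middle quintile of scores, with 37.4% and 24.8% new and 68.1% and 45.9% lost. New peaks had their nearest neighbour in the same list at a median of 4067 bp, against 2267 bp for kept D5 peaks, and lost peaks at 2838 bp, against 1626 bp for kept D3 peaks. Near the distal end, within 10 Mb of the last peak of a chromosome, 28.3% of D5 peaks were new and 41.3% of D3 peaks were lost, against 30.3% and 49.2% more than 50 Mb away. In the middle quintile of scores the new shares were close, with 32.2% of 1851 D5 peaks near the end and 30.8% of 6983 more than 50 Mb away. No interval was computed for them. The lost shares in that quintile were 47.4% near the end and 55.3% more than 50 Mb away.

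Peak cover was also followed in regions of 100 kb, of which 14928 had a peak at D5 or D3. Cover was higher at D5 in 3693 and lower in 11232, and the median difference was -0.67 percentage points. Cover was at least 5 points higher at D5 in 27 regions (0.181%) and at least 5 points lower in 725 (4.86%). With equal numbers of peaks these counts were 106 and 220. Counting only peaks that score 100 or more gave 11 and 556, and setting all peaks to 500 bp gave 0 and 127. The numbers of regions with higher and with lower cover thus both depend on how the lists are trimmed.

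The regions with higher and lower cover differed in their end states. In the 27 regions mean cover was 9.22% in MEF, 11.1%, 14.7% and 21.4% at D1, D3 and D5, and 18.0% in iPSC. In the 725 regions it was 11.9% in MEF, 16.4%, 18.0% and 11.1% at D1, D3 and D5, and 5.33% in iPSC. Cover in iPSC was above MEF in 22 of the 27, against 29.6% of all 14928. It was below MEF in 618 of the 725 (85.2%), against 65.2% of all. OSNK cover was lower at D5 than at D3 in 16 of the 27 and in 690 of the 725 (95.2%), against 77.6% of all.

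For the 5 regions that differed furthest in each direction, positions are those of the deposited lists. Their mouse assembly is one for which no annotation was used here, so genes are not named. The largest increase was at positions 117900001 to 118000000 of chromosome 11, with cover of 30.3% at D5, against 18.8% at D3. That region had 7.50% in MEF, 10.4% at D1 and 39.9% in iPSC, so that each library in this order was higher than the one before. On chromosome 4, positions 140500001 to 140600000 had 34.1% at D5, against 23.5% at D3. Among peaks scoring 100 or more the difference there was -4.02 points, so its sign depends on the weaker peaks.

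The third was on X at positions 166400001 to 166500000, close to the last X peaks of the lists, with 20.6% at D5, against 10.3% at D3. None of its 5 D3 peaks was lost and 4 of its 9 D5 peaks were new. Its cover in iPSC was 6.09%, below both days. On chromosome 15, positions 85900001 to 86000000 had 45.4% at D5, against 35.3% at D3, and 23.7% in iPSC. On chromosome 10, positions 126900001 to 127000000 had 22.9% at D5, against 14.2% at D3, and 22.0% in iPSC. Counting only peaks that score 100 or more, the differences on chromosomes 11, 15 and 10 were 5.48, 5.07 and 4.47 points.

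The largest decrease was on chromosome 15 at positions 25600001 to 25700000, with cover of 19.4% at D5, against 37.4% at D3. Of its 33 D3 peaks 14 were lost, and 2 of its 19 D5 peaks were new. On chromosome 11, positions 76100001 to 76200000 had 27.4% at D5, against 44.7% at D3, with 17 of 42 D3 peaks lost. On chromosome 1, positions 92900001 to 93000000 had 36.6% at D5, against 53.3% at D3. On chromosome 6, positions 114800001 to 114900000 had 8.65% at D5, against 25.3% at D3, and on chromosome 13, positions 63300001 to 63400000 had 13.0% at D5, against 29.5% at D3. The chromosome 6 difference was -16.6 points with all peaks and -9.46 among peaks scoring 100 or more.

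These 5 regions were alike in some steps and not in others. From D1 to D3 cover went from 36.5% to 29.5% on chromosome 13 and from 18.9% to 25.3% on chromosome 6. Cover was higher at D1 than in MEF in each, by the most on chromosome 13 with 36.5% at D1 and 18.5% in MEF, and it was between 0% and 7.76% in iPSC. At D5 it was below MEF in 4 of them and above it on chromosome 11, with 27.4% at D5, against 25.5% in MEF. OSNK cover was lower at D5 than at D3 in each as well, with 43.2% at OSNK D5, against 56.8% at OSNK D3, in the chromosome 15 region.

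**Figure D5:**
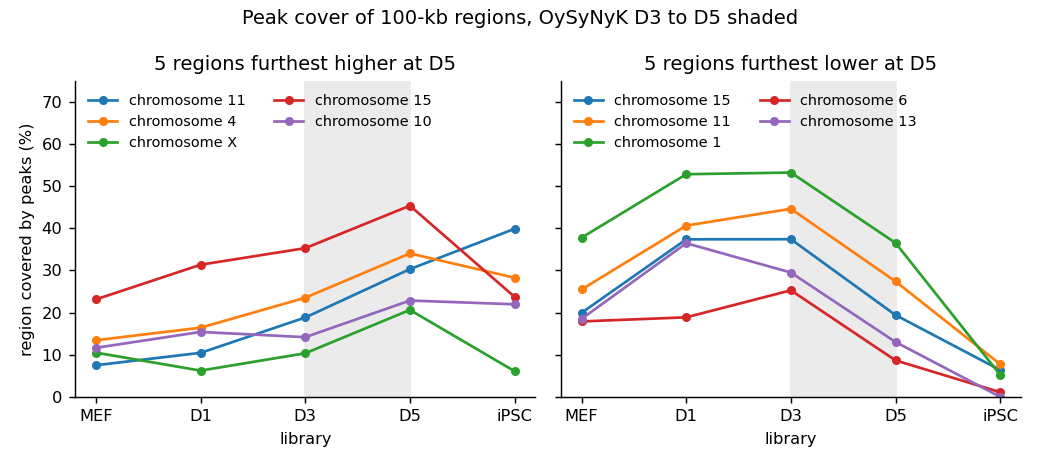
Share of each named 100-kb region covered by peaks, in percent, in MEF, OySyNyK D1, D3 and D5, and iPSC, for the 5 regions furthest higher (left) and furthest lower (right) at D5 than at D3; each point is 1 library. On the right all regions end between 0% and 7.76% in iPSC; on the left chromosomes 15 and X are lower in iPSC than at D5 by the widest margins.

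Among the 5 highest-scoring new and 5 highest-scoring lost peaks, 6 had a peak of the other day within 1 kb. The highest-scoring new peak, at positions 109292545 to 109293103 of chromosome 11, had a score of 278, and 1597 peaks of D5 scored higher. It had a peak in MEF (153) and in iPSC (112) but in no other intermediate, and its nearest D3 peak was 2428 bp away. Of the other 4, at 166426290 to 166429782 on X, 102931692 to 102933322 on chromosome 11, 34981143 to 34982785 on chromosome 8 and 192772740 to 192773453 on chromosome 1, 3 were iPSC-side. Their scores lay between 248 and 271, and the nearest D3 peak was 364, 822, 653 and 8005 bp away. The chromosome 8 peak was MEF-side and was in all 3 OSNK lists, at scores of 53.4 to 80.2.

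The highest-scoring lost peak, at 76108098 to 76110107 of chromosome 11, had a D3 score of 422, and 1339 peaks of D3 scored higher. It was intermediate-only, with scores of 265 at OySyNyK D1 and 351, 354 and 311 at OSNK D1, D3 and D5, and a D5 peak lay 291 bp away. It falls in the region of chromosome 11 described above. The next, at 63406870 to 63408571 of chromosome 13, was MEF-side with a D3 score of 406 and a MEF score of 550, and a D5 peak lay 354 bp away. The MEF-side peak at 30954072 to 30956402 of chromosome 9 had a D3 score of 392 and its nearest D5 peak 8170 bp away. The peak at 110257110 to 110258780 of chromosome 11 was iPSC-side with a D3 score of 381, and a D5 peak lay only 62 bp away. The last, at 99475127 to 99477467 of chromosome 6, was intermediate-only with a D3 score of 372 and no D5 peak within 22578 bp. All 5 were also in the OySyNyK D1 list and in the 3 OSNK lists, so each was absent from OySyNyK D5 and present at OSNK D5.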

How the data were processed

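5hmC-bearing DNA fragments were glucosylated with an azide sugar, biotinylated, captured on streptavidin beads and sequenced, per the labels' protocols. The deposited files are 1 peak list per library, with no pooling. Per the submitters' processing notes the tools were Bowtie and MACS. Versions and options were not given in the sources used here, nor whether a control was used. The peak score in each list is used as deposited by the authors; its lowest value of 50 corresponds to a p-value of 1e-05. Read depth is unknown. The notes name the human builds hg18 and NCBI36, but the 20 chromosomes are those of mouse, and peaks lie beyond the last GRCm38 gene on 10 of them, so no annotation or sequence was used.

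Peak position was converted to counting from 1. Overlap meant at least 1 bp. Shares have exact (Clopper-Pearson) 95% intervals, which cover counting error only, and include overlap by chance, which grows with list length and width. Deciles and quintiles are of each list ordered by score or width, and cover is the share of a 100-kb region under peaks. Equal numbers means the best-scoring D3 peaks, as many as D5 has. Regions and peaks named are the 5 furthest in each direction by cover difference, the 5 highest-scoring new and lost peaks and the 3 chromosomes highest and lowest in lost share. Members, classes and rules were chosen with earlier results of these data known. Python 3.11.15, numpy 2.4.6, pandas 2.3.3, scipy 1.17.1 and matplotlib 3.10.9 were used; overlap counts for all 56 ordered pairs of lists were the same as those of bedtools 2.31.1, and the overlap code was tested on simulated data. The alternatives tried are given with their values in the closing section.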

Additional observations from a re-analysis of the deposited data

Results flagged for a closer look

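From D3 to D5 the methods moved in opposite directions in 3 measures, with 1 library at each point, and the difference between the methods was not tested. The number of peaks, D5 minus D3, was -23102 with OySyNyK and 3265 with OSNK. The median peak width differed by 23 bp with OySyNyK and by -261 bp with OSNK, whose D3 list had the widest peaks of the series. Intermediate-only peaks differed by -15619 with OySyNyK and by 5162 with OSNK. With the lists of each method cut to equal numbers, intermediate-only peaks differed by -260 with OySyNyK and by 2763 with OSNK. MEF-side peaks (-9148 with OySyNyK and -3779 with OSNK), iPSC-side peaks (2015 and 2095) and shared peaks (-350 and -213) moved the same way with both methods over the whole lists. Covered length (-16.8 Mb with OySyNyK and -28.0 Mb with OSNK) and median score (-8.4 and -10.1) also moved the same way. With equal numbers the class differences of each method add up to 0. MEF-side peaks then differed by -4346 with OySyNyK and -4316 with OSNK, and iPSC-side peaks by 4222 and 1849. Shared peaks went in opposite directions, by 384 with OySyNyK and -296 with OSNK.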

How the results depend on the processing

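Each share was recomputed under 8 settings, whose values follow in this order. They were 50% of the peak covered, a peak within 1 kb counted as overlap, only peaks scoring 100 or more, D3 cut to the number of D5 peaks, equal numbers in all 4 lists, 500-bp peaks, equal numbers of 500-bp peaks, and peaks within 1 kb merged. New peaks made up 32.2, 22.5, 25.3, 38.2, 38.4, 33.3, 41.8 and 29.2%. Lost peaks made up 49.7, 37.3, 55.1, 38.8, 39.1, 49.6, 41.9 and 45.1%. The score limit of 100 was applied to both days, so a D3 peak whose D5 partner scored below 100 counted as lost. Against the whole D5 list 7584 D3 peaks scoring 100 or more were lost, in place of 19928 of 36174. Of iPSC-side D3 peaks, those lost were 25.5, 24.1, 26.5, 19.4, 20.5, 27.8, 22.5 and 24.5%. Among MEF-side D3 peaks the lost share was 46.3, 36.2, 51.3, 38.6, 40.0, 46.9, 40.8 and 42.2%. For shared D3 peaks it was 16.2, 11.6, 16.4, 11.4, 13.0, 17.9, 15.4 and 11.2%. For intermediate-only D3 peaks it was 59.7, 53.2, 63.8, 50.5, 51.1, 58.9, 51.0 and 59.1%. iPSC overlap of new peaks was 25.0, 32.1, 20.2, 26.6, 30.0, 26.1, 25.6 and 26.6%. iPSC overlap of lost peaks was 7.31, 13.9, 4.66, 9.35, 11.3, 8.80, 9.49 and 9.12%. MEF overlap of new peaks was 15.0, 20.5, 16.2, 18.3, 17.8, 15.3, 16.8 and 15.4%. MEF overlap of lost peaks was 27.4, 34.8, 30.5, 32.9, 33.3, 25.8, 29.1 and 28.1%. Bases covered on both days, as a share of those covered on either (39.9% as first computed), were 39.9, 39.9, 35.9, 40.5, 40.1, 29.2, 29.6 and 40.3%. With autosomes only, each share lay within the counting interval of the value for all chromosomes. The lost share kept its order of classes, from shared over iPSC-side and MEF-side to intermediate-only peaks, under all 9 settings, and the smallest MEF-side excess over iPSC-side peaks within a score quintile was 4.55 points, with a peak within 1 kb counted. The net number of iPSC-side peaks, D5 minus D3, lay between 292 (peaks scoring 100 or more) and 4488 (equal numbers of 500-bp peaks). Settings for regions were added after seeing the data: regions at least 5 points higher at D5 numbered 11 with a score of at least 100, 106 with equal numbers and 0 with 500-bp peaks, against 27, and those at least 5 points lower 556, 220 and 127, against 725. The chromosome 4 region reversed to -4.02 points among peaks scoring 100 or more. The cause was not tested beyond what each setting does by construction. No paired analysis was possible because each group has 1 library. With 1 library a side and unknown depth, a peak missing from a list cannot be read as 5hmC missing from the site.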

Other observations

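Peaks found in none of the 6 other lists made up 33.5% of new D5 peaks (32.8 to 34.1), against 5.43% of kept D5 peaks, and 19.1% of lost D3 peaks (18.8 to 19.5), against 5.48% of kept D3 peaks. Lost iPSC-side peaks lay on weaker iPSC peaks than kept ones, with a median iPSC score of 69.0, against 82.0. New iPSC-side peaks did not stand apart in this way, with a median iPSC score of 80.3, against 81.5 for kept D5 peaks of that class. For MEF-side peaks the median MEF score was 101 under new and 148 under kept D5 peaks, and 130 under lost and 145 under kept D3 peaks.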
